A study of Homo sapiens with 6 samples.

Results

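The S100 genes on the long arm of chromosome 1 (band 1q21) encode small calcium-binding proteins, and the binding of DEK was followed here at 8 of them, S100A8, S100A9, S100A12, S100A10, S100A11, S100A6, S100A4 and S100A13. The 8 genes were taken by name out of 20162 annotated protein-coding genes, and a DEK peak was assigned to a gene when it overlapped the gene body extended by 5 kb on each side. A window of 300 kb on GRCh37 was examined as well, which begins 10330 bp before S100A9 and ends 16164 bp beyond S100A13. It holds 6 of the 8 genes, while S100A10 (151955391 to 151966335) and S100A11 (152004982 to 152020383) lie outside it and were assigned peaks by gene body alone. DEK was precipitated from chromatin of U937, an established human myeloid cell line that received no treatment, in 2 precipitations described as independent. Chromatin immunoprecipitation followed by sequencing (ChIP-seq) gives peaks, stretches where fragments held by the antibody accumulate. Peak lists of 2 precipitations with an antibody against H3K4me3, a histone mark of active transcription start sites (TSSs), were used beside them, and the peaks of all 4 lists were called in each precipitation separately.

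S100 proteins carry a pair of EF-hand loops, the helix-loop-helix fold that binds calcium, and most of them act as dimers. S100A8 and S100A9 form the heterodimer calprotectin, which is abundant in the cytoplasm of neutrophils and monocytes and is released in inflammation, and S100A12 is a related protein of neutrophils. These myeloid members are called calgranulins. S100A10 is the partner of annexin A2 and no longer binds calcium, S100A11 and S100A6 (calcyclin) are expressed in many cell types, S100A4 (metastasin) binds non-muscle myosin, and S100A13 takes part in the release of proteins that lack a signal peptide. The genes are short and lie in a row, apart from S100A10 and S100A11, which are separated from the others by genes of the epidermal differentiation complex.

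Of the 8 genes, 5 had a DEK peak in replicate 1 and 7 in replicate 2, but only S100A9 and S100A11 had one at the same place in both lists. S100A9 had 1 such shared interval, an intersection of at least 1 bp of a replicate 1 and a replicate 2 peak, and S100A11 had 2. Each of these 3 intervals had its middle within 1 kb of an annotated TSS of its gene and overlapped H3K4me3 in both replicates. The nearest shared interval to the other 6 genes lay 15718 bp (S100A12) to 185620 bp (S100A4) outside the gene body. S100A13 had no DEK peak in either list. Peaks in the region of S100A8, S100A6 and S100A4 were found in both precipitations, but at different places.

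These counts are read against the whole annotation and no test was made on them, since neighbouring genes can share a peak and 2 precipitations give no estimate of the spread. On the gene body extended by 5 kb, 29.0% of all protein-coding genes had a replicate 1 peak, 88.1% a replicate 2 peak and 13.8% a shared interval. The members are short, with gene bodies of 1042 bp (S100A8) to 15402 bp (S100A11). Among the 7208 protein-coding genes no longer than S100A11, a subset chosen after the values were seen, the shares were 12.8%, 76.6% and 6.62%. A shared interval with its middle within 1 kb of a TSS was found at 4.38% of protein-coding genes and at 2 of the 8 members. The 7 members with a replicate 2 peak are thus close to the background of that list, which marks most genes. The count of 5 in replicate 1 includes 1 peak that was assigned to both S100A6 and S100A4. Without extension of the gene body the counts were 2 and 4, and with a score of at least 100 they were 3 and 3. When the replicate 2 list was shortened to the 15017 peaks of highest score, the length of the replicate 1 list, no member had a replicate 2 peak.

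The lists differ in length, which bears on every count. Replicate 1 had 15017 peaks, all with a false discovery rate of 100%, and replicate 2 had 152779 peaks, 10.2 times as many, with rates of 0.74% to 16.67%. The score of a peak is 10 times the negative log10 of its p-value, and its median was 68.8 in replicate 1 and 78.3 in replicate 2. The lists give the tags (aligned reads) in peaks but no total of reads, and the paper states only a minimum of reads per sample. The depth of each precipitation is therefore unknown, and tags are not compared between the replicates. Intervals given for tags are exact 95% Poisson intervals on the count of a single peak. They cover counting error only and leave out variation between precipitations. The reads also carry no molecular identifiers.

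**Figure D1:**
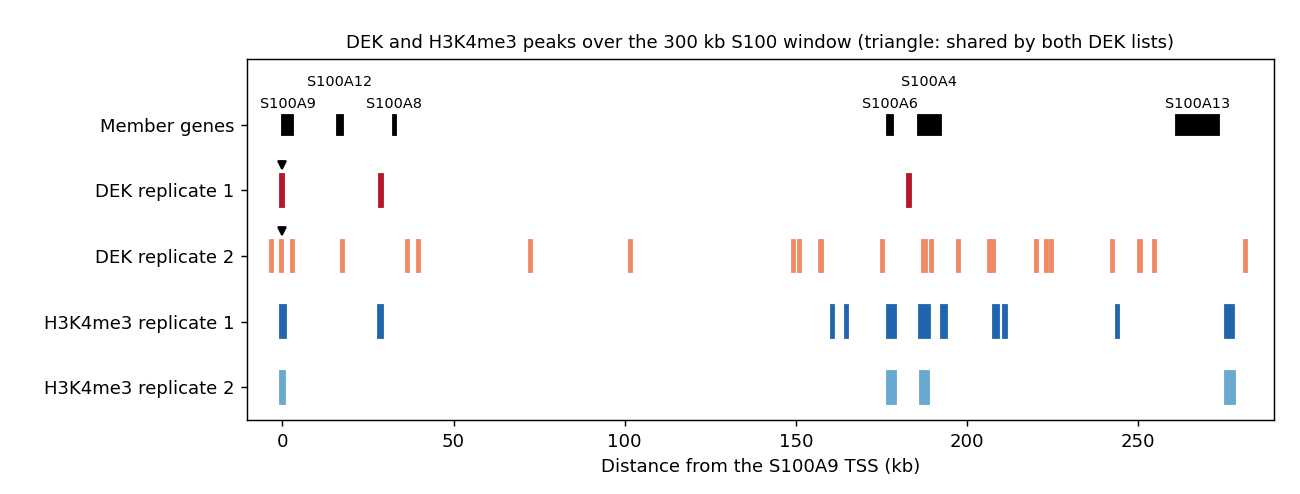
Positions of the member genes, of the DEK peaks and of the H3K4me3 intervals (rows) across the 300 kb window, in kb from the TSS of S100A9. Replicate 1 has 3 DEK peaks and replicate 2 has 24, and a triangle marks the only position where the lists meet, at the start of S100A9.

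In the 300 kb window, replicate 1 had 3 peaks that held 151 tags, and each of them was assigned to a member. Replicate 2 had 24 peaks with 510 tags, of which 9 were assigned to a member. Among 10308 consecutive windows of the same length over the autosomes, X and Y, assembly gaps included, 22.0% held at least as many replicate 1 peaks, 21.5% at least as many replicate 2 peaks and 25.9% at least 1 shared interval, so that the number of peaks in the S100 window lay in the upper range but was common. The replicate 2 peaks of the window had a median of 17.5 tags (12 to 38) and a median score of 69.4. In the map of the window, the replicate 2 peaks are spread over the whole row of genes, whereas the replicate 1 peaks lie at S100A9, near S100A8 and between S100A6 and S100A4.

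The reference sequences at the intervals that both precipitations share, and at the S100A8 peak of replicate 1, are shown because the comparison of the members turns on them. All are 300 bases of GRCh37 in the direction of transcription of the named gene. The first covers chr1:153330030-153330329, the bases just before the S100A9 TSS, and holds the summits (highest points) of both replicates. The second covers chr1:152020454-152020753, upstream of the outer TSS of S100A11, the third chr1:152008919-152009218 in the intron downstream of its inner TSS, and both hold the summits of both replicates. The last covers chr1:153359051-153359350, between S100A8 and S100A12, with the replicate 1 summit in its middle. Capitals mark matches, on either strand, to the 8 short motifs named after the sequences.
S100A9 shared interval: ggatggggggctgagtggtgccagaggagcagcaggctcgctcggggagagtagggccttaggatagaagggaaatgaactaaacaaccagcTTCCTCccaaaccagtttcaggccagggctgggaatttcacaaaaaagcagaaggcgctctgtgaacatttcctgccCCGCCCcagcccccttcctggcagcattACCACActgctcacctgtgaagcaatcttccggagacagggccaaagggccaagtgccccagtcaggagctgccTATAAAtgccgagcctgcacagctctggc
S100A11 outer shared interval: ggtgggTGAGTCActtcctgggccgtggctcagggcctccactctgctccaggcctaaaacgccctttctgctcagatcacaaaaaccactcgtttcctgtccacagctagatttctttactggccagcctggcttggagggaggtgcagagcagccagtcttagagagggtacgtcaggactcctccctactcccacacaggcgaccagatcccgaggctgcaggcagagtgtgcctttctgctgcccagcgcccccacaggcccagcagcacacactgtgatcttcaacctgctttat
S100A11 inner shared interval: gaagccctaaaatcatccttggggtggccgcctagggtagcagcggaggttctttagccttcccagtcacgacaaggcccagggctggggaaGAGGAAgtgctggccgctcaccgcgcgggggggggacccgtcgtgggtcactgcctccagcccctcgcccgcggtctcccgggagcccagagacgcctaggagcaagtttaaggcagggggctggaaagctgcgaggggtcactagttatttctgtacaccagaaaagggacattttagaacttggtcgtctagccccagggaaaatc
S100A8 replicate 1 peak: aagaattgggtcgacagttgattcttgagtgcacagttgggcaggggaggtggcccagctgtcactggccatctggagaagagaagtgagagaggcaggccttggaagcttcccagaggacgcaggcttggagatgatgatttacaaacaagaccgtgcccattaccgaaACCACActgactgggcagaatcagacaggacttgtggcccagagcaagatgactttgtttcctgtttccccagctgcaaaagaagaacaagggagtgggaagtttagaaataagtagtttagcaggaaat

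The motifs searched were GAGGAA for PU.1, TGTGGT for RUNX factors, TTGCNNAA for C/EBP factors and TGANTCA for AP-1. CACGTG was the motif for USF1, CCGCCC and CCCCACCC were those for SP1, and TATAAA was the TATA box. The PU.1 motif AGGAARH reported by the study (R is A or G, H is A, C or T) was not searched. Every sequence shown holds a match to it on either strand, as ACTTCCT in the outer S100A11 sequence and GTTTCCT in the S100A8 sequence. A sequence without GAGGAA is therefore not one without a PU.1 motif. The S100A9 sequence held the PU.1 motif from base 93, the SP1 motif CCGCCC from base 170, the RUNX motif from base 198 and the TATA box from base 272, with bases counted from 1 at the 5′ end. Of the 300 bp windows directly upstream of all 20162 protein-coding genes, 27.4% held the PU.1 motif, 50.4% the motif CCGCCC, 12.5% the RUNX motif and 12% the TATA box. In the 300 bp windows around 14930 replicate 1 summits the shares were 34.0% for the PU.1 motif, 11.9% for CCGCCC, 30.6% for the RUNX motif and 14.7% for the TATA box. The outer S100A11 sequence held the AP-1 motif from base 7, which was present in 6.64% of the upstream windows and 12.5% of the summit windows. The inner S100A11 sequence held the PU.1 motif from base 93. The S100A8 sequence held the RUNX motif, as the S100A9 sequence did, from base 171. The RUNX motif was thus more frequent around DEK summits than upstream of genes, and CCGCCC less frequent, so that how common a match is depends on the windows it is set beside. These matches describe the letters of the windows and were not tested.

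The base composition of the sequences also differed. The ratio of observed to expected CpG was 0.238 in the S100A9 sequence and 0.276 in the outer S100A11 sequence, while it was 0.573 in the inner S100A11 sequence, which lies downstream of its TSS. The median was 0.650 over the upstream windows of protein-coding genes and 0.282 over the replicate 1 summit windows. A lower ratio than that of the S100A9 sequence was found in 20.0% of the upstream windows and in 41.3% of the summit windows. The GC content was 58.0% at S100A9 and 58.7% and 61.3% at S100A11, against a median of 58.3% in the upstream windows and 48.7% in the summit windows. Of the summit windows, 89.6% had a lower GC content than the S100A9 sequence, which was therefore near the middle of the DEK sites in CpG ratio and above most of them in GC content.

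At S100A9 (chromosome 1, 153330330 to 153333499, plus strand), the gene of the larger calprotectin subunit, both precipitations had a peak over the promoter. The replicate 1 peak, from 153329605 to 153330664, held 55 tags (41.4 to 71.6), and its summit lay 99 bp upstream of the TSS. The replicate 2 peak, from 153329638 to 153330469, held 29 tags (19.4 to 41.6), with its summit 139 bp upstream. The summits were thus 40 bp apart, while the median gap between the summits of the 2 peaks behind a shared interval was 153 bp over 4453 shared intervals. The whole replicate 2 peak lay inside the replicate 1 peak and covered 78.5% of it.

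The scores of these S100A9 peaks were 151 and 141, higher than those of 88.4% of the replicate 1 list and 87.6% of the replicate 2 list. By the lower of the 2 scores the interval ranked 205 of the 4453 shared intervals. Its fold enrichment over the local background model of the peak caller was 8.36 in replicate 1 and 5.77 in replicate 2. H3K4me3 intervals covered the S100A9 TSS in both replicates and met the DEK peaks. Replicate 2 had 2 more peaks at S100A9 that replicate 1 lacked. One lay upstream, from 153326801 to 153327552 (18 tags, score 56.5, summit 3046 bp before the TSS), and the other over the last part of the gene, from 153332957 to 153333757 (25 tags, score 110), with its summit in an untranslated part of an exon. Neither overlapped H3K4me3.

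At S100A8 (153362508 to 153363549, minus strand), which encodes the smaller calprotectin subunit, neither precipitation had a peak with its middle within 1 kb of a TSS. The replicate 1 peak assigned to it spanned 153358589 to 153359656 and held 57 tags (43.2 to 73.9). Its summit lay 4251 bp downstream of the nearest S100A8 TSS, beyond the end of the gene and outside every annotated protein-coding gene. Its score of 183 and its enrichment of 11.7 times were the highest of the replicate 1 peaks at any of the members. Both S100A11 peaks of that list held more tags (89 and 79). The fold enrichment of the S100A8 peak exceeded that of 97.0% of the replicate 1 list. Replicate 2 had no peak at this S100A8 site. Its single peak in the S100A8 region, from 153366323 to 153366919, lay on the other side of the gene with its summit 2970 bp upstream of the TSS, and held 13 tags (6.92 to 22.2) with a score of 61.5. The H3K4me3 lists also differed at the replicate 1 site: H3K4me3 replicate 1 had an interval from 153358395 to 153359709 that overlapped the DEK peak, and H3K4me3 replicate 2 had none in the S100A8 region. No H3K4me3 interval lay within 1 kb of an S100A8 TSS in either replicate.

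At S100A12 (153346187 to 153348097, minus strand), only replicate 2 had a peak. It spanned 153347467 to 153347884 in an intron, 408 bp from summit to TSS, and held 12 tags (6.20 to 21), the smallest number in that list, with a score of 77.0. The nearest replicate 1 peak was the S100A8 site, 10492 bp away from the gene body. H3K4me3 was not found in the extended region of S100A12 in either replicate. Of the 3 calgranulin genes, S100A9 alone had a DEK peak and H3K4me3 at its TSS in both precipitations.

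**Figure D2:**
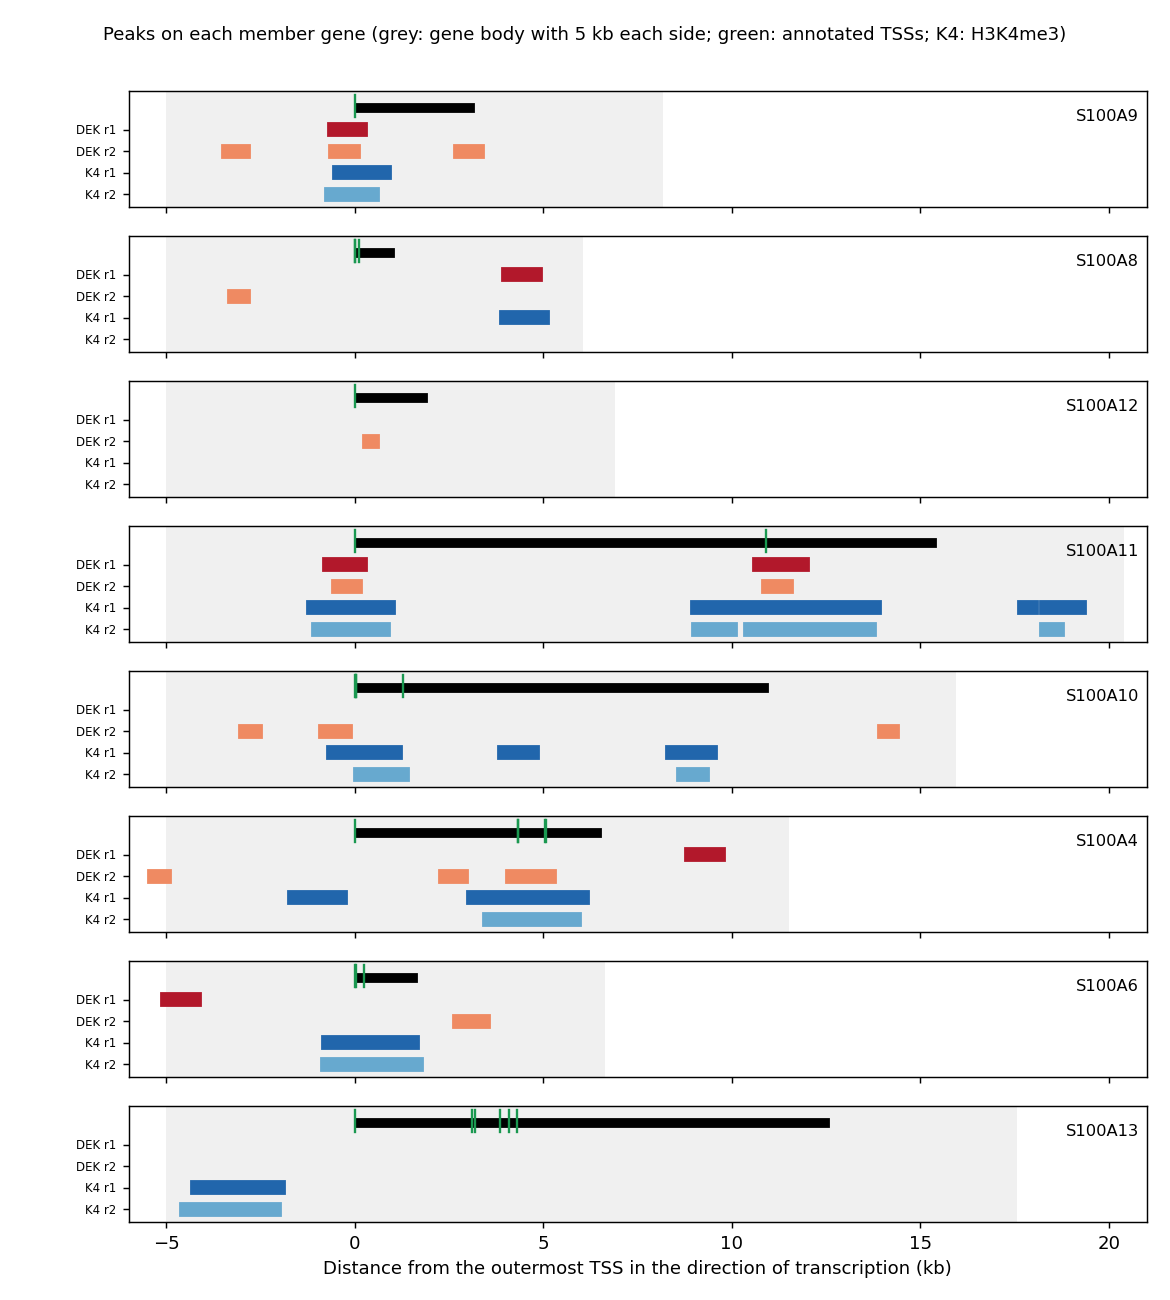
DEK peaks (dark red and orange for replicates 1 and 2) and H3K4me3 intervals (dark and light blue) at the 8 members, drawn in the direction of transcription in kb from the outermost TSS, with the gene in black and each annotated TSS in green. All 4 lists meet at the S100A9 TSS and at both S100A11 TSSs, while at S100A6 and S100A13 the H3K4me3 intervals have no DEK peak on them.

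S100A11 (minus strand) has 2 annotated TSSs, at 152020383 for a transcript without a defined coding sequence and at 152009480 for the coding transcript, and both precipitations had a peak near each of them. At the outer TSS, the replicate 1 peak from 152020071 to 152021226 held 89 tags (71.5 to 110) with a score of 100 and an enrichment of 6.18 times. The replicate 2 peak from 152020188 to 152020986 held 26 tags (17.0 to 38.1) with a score of 104, 4.0 times enriched. Their summits lay 332 and 110 bp upstream of the outer TSS. The interval ranked 524 of the 4453 shared intervals by the lower score.

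The peaks at the inner S100A11 TSS were weaker in score in both lists. The replicate 1 peak from 152008350 to 152009812 held 79 tags (62.5 to 98.5) but had a score of 50.3, close to the lowest score in the list, and a fold enrichment of 3.40. The replicate 2 peak from 152008775 to 152009585 held 21 tags (13 to 32.1), scored 56.4 and was enriched 3.44 times. The summits lay 401 and 421 bp downstream of the inner TSS, 20 bp apart, inside an intron. This interval ranked 4386 of 4453, so that the S100A11 intervals stood near opposite ends of the shared list although their tag counts in replicate 1 had overlapping intervals. H3K4me3 covered both TSSs in both replicates, with 1 interval of 5039 bp around the inner TSS in replicate 1. S100A11 was the only member with DEK peaks of both lists at more than 1 place.

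At S100A10 (minus strand), the annexin A2 partner, replicate 1 had no peak and replicate 2 had 3. The one nearest to the gene spanned 151966406 to 151967295 with its summit 534 bp upstream of the outermost TSS, and held 27 tags (17.8 to 39.3) with a score of 95.2. The others lay 2827 bp upstream (20 tags, score 88.5) and beyond the end of the gene (13 tags, score 58.4). H3K4me3 covered the S100A10 start in both replicates. The replicate 1 interval of the mark overlapped the DEK peak of replicate 2 next to the TSS, and the replicate 2 interval ended 56 bp short of it. The nearest replicate 1 DEK peak was the inner S100A11 peak, 42015 bp away.

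At S100A4 (153516089 to 153522612, minus strand), replicate 2 had 3 peaks. One of them, from 153517276 to 153518591, spanned the inner TSSs that most annotated S100A4 transcripts use. It held 35 tags (24.4 to 48.7), and both its score of 52.3 and its enrichment of 2.38 times were near the low end of that list. Another peak held 22 tags with a score of 59.5. Its summit lay in an intron of S100A4, and its middle also lay inside the neighbouring gene S100A3. The last peak held 26 tags with a score of 128, more than 5 kb upstream of the outermost TSS. This last peak only reached into the extended region, 4881 bp from the gene body. H3K4me3 lay over the inner TSSs in both replicates and overlapped the first of these DEK peaks.

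S100A6 (153507075 to 153508720, minus strand) had a peak in each list, but on opposite sides of the gene. Replicate 2 had a peak from 153505134 to 153506111 (33 tags, 22.7 to 46.3, score 90.3), 964 bp beyond the end of the gene. The replicate 1 peak, from 153512800 to 153513869 (39 tags, 27.7 to 53.3, score 56.7, fold enrichment 4.33), lay 4080 bp upstream of S100A6 and 2220 bp beyond the end of S100A4, and was counted for both. Its middle was inside S100A5, 76 bp from a TSS of that gene, which is not among the members. H3K4me3 intervals of 2588 and 2711 bp covered the S100A6 TSSs in the 2 replicates, and no DEK peak of either list overlapped them.

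S100A13 (153591263 to 153603836, minus strand) was without a DEK peak in the extended region in both lists, although it has 6 annotated TSSs. The nearest replicate 2 peak lay 6123 bp and the nearest replicate 1 peak 40142 bp outside the gene body. It also lacked H3K4me3 within 1 kb of its TSSs. The nearest H3K4me3 intervals had their middles 3100 and 3298 bp from its outermost TSS and covered the start of the neighbouring gene CHTOP. Extending the gene body by 10 kb in place of 5 kb brought S100A13 a replicate 2 peak, so that all 8 members had one.

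**Figure D3:**
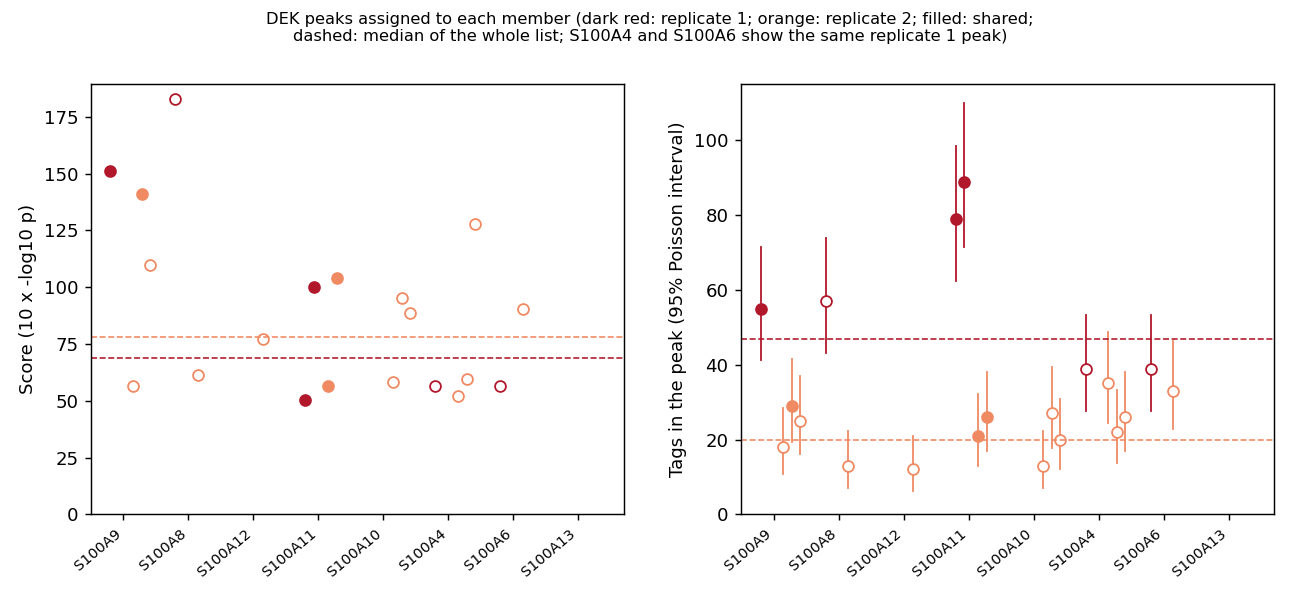
Score (left) and tags with 95% Poisson intervals (right) of each DEK peak assigned to a member, dark red for replicate 1 and orange for replicate 2, filled where the peaks of both lists overlap, with dashed lines at the medians of the lists. The highest score belongs to the replicate 1 peak near S100A8 (183), which is open, and the filled points at S100A9 lie at 151 and 141.

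H3K4me3 was found within 1 kb of a TSS of 5 members in both replicates: S100A9, S100A10, S100A11, S100A6 and S100A4. This is 5 of 8 against 58.6% of all protein-coding genes. Both members with a shared DEK interval were among the 5, as all 3 shared intervals overlapped the mark in both replicates. Among the protein-coding genes with H3K4me3 in both replicates, 18.9% had a shared DEK interval on the extended gene body, and 2 of these 5 members did. Over the genome, 32.9% of the replicate 1 peaks, 7.74% of the replicate 2 peaks and 33.7% of the shared intervals overlapped H3K4me3 of both replicates. Of the DEK peaks in the 300 kb window, 1 of 3 in replicate 1 and 2 of 24 in replicate 2 did so. The H3K4me3 lists hold positions without tags or scores, so that strong and weak marks could not be told apart.

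Other genes of the S100 family and of its binding partners were examined from lists that were chosen with earlier results of these data known. Of 12 other protein-coding S100 genes, 1 had a replicate 1 peak (S100A5, by the peak counted for S100A6 and S100A4), 9 had a replicate 2 peak and none had a shared interval. Of 11 genes of S100 receptors and partners, 6 had a replicate 1 peak, 10 a replicate 2 peak and 5 a shared interval. In the same order, the shares were 29.0%, 88.1% and 13.8% of all protein-coding genes. Among those no longer than S100A11 they were 12.8%, 76.6% and 6.62%. The replicate 2 counts of both lists thus stood near the background. Neither list was limited to genes of that length, so the shorter genes are not a matched background for them, and the counts were not tested. At TLR4, a receptor for calprotectin, the middle of the shared interval lay 46 bp downstream of a TSS, with 48 and 16 tags and scores of 92.1 and 98.0 in replicates 1 and 2. At CACYBP, whose product binds S100A6, it lay 40 bp downstream of a TSS, with 117 and 18 tags and scores of 166 and 71.3. ANXA6, an annexin, had 2 shared intervals, the closer one 889 bp from a TSS with scores of 60.4 and 175. The shared intervals at CD36, a scavenger receptor, and at S100PBP, whose product binds S100P, lay 20671 and 8466 bp downstream of a TSS. ANXA2, the gene for the partner of S100A10, had none.

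Neighbouring or related groups of genes are given for comparison. Of 11 genes of myeloid granule proteins, 3 had a replicate 1 peak (MPO, CTSG and BPI), 10 a replicate 2 peak and none a shared interval. The replicate 1 and replicate 2 shares were 27.3% and 90.9%, beside 29.0% and 88.1% of all protein-coding genes. A shared interval was found at 13.8% of all protein-coding genes. Among those no longer than S100A11, the shares for replicate 1, replicate 2 and shared intervals were 12.8%, 76.6% and 6.62%. The granule protein genes were not matched to either background by length, so how near they stand to it was not settled. The 47 protein-coding genes between S100A11 and S100A9 are mostly from the epidermal differentiation complex and known for their role in keratinocytes. Their shares lay below those of all protein-coding genes and below those of genes no longer than S100A11. There 1 gene had a replicate 1 peak (PGLYRP3), 6 a replicate 2 peak and none a shared interval, and none had H3K4me3 within 1 kb of a TSS in either replicate. These counts were not tested, as genes in a row are not independent.

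**Figure D4:**
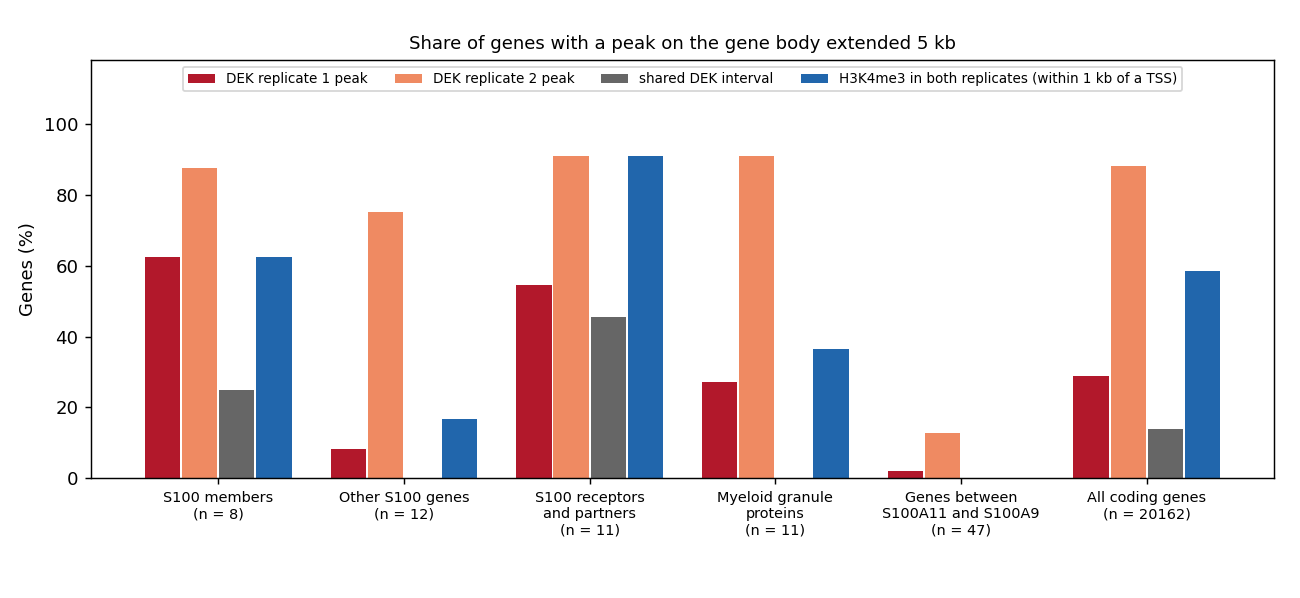
Percent of the genes of each group with a DEK replicate 1 peak, a DEK replicate 2 peak or a shared DEK interval on the gene body extended by 5 kb, and with H3K4me3 within 1 kb of a TSS in both replicates. The share with a replicate 2 peak is 87.5% in the S100 members and 88.1% in all coding genes. The 47 genes between S100A11 and S100A9 have the lowest shares, except that other S100 genes and myeloid granule proteins also lack shared intervals.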

How the data were processed

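DEK and H3K4me3 were each precipitated from U937 chromatin in 2 experiments. Non-precipitated chromatin (Input, 2 samples) served as control and was not analysed here. Alignment by the authors was to hg19 in Bowtie 2, and MACS 1.4.1 called the peaks of every precipitation with its default settings. For every DEK peak the deposited lists give a tag count, not scaled to depth, a score derived from the −log10 of the p-value (multiplied by 10), the fold enrichment as a ratio to the local background, and a false discovery rate in percent. The deposited H3K4me3 lists hold positions alone. Total reads are not in the lists and the paper gives only a minimum per sample, so the depth of each precipitation is unknown.

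Peaks were assigned with GENCODE release 44 on GRCh37, whose chromosomes carry the hg19 coordinates, and distances were taken to the TSSs of all annotated transcripts of a gene. An overlap of 1 bp counted. GC content, motifs and sequences came from the GRCh37 primary assembly. Overlap functions were tested on simulated peaks against direct enumeration. Python 3.11.15, NumPy 2.4.6, SciPy 1.17.1 and Matplotlib 3.10.9 were used. Members, lists and alternatives were chosen with earlier results of these data known. All 8 members are named, and genes of the other lists where they carried a shared interval, while genes behind counts of 5 or fewer (S100A5, PGLYRP3, MPO, CTSG, BPI) and ANXA2 were named after their values were seen. The second S100A7-like gene of the list is not annotated as protein-coding and was left out. Alternatives were other extensions, TSS boundaries, overlaps, scores and lists of equal length.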

Additional observations from a re-analysis of the deposited data

How the results depend on the processing

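Of 32 alternative values for the 8 counts, 21 stayed within 1.5 times the reported count. S100A9 and S100A11 remained 2 members with a shared interval under every extension, TSS boundary, overlap and score tried. At a score of at least 100, S100A11 passed by its outer interval alone, whose lower score was 100, at the cut. The shared count was not taken with the shortened replicate 2 list. No member kept a replicate 2 peak in that list, so none could have a shared interval there. Members with a replicate 1 peak fell from 5 to 2 without extension, to 2 with an extension of 2 kb and to 3 at a score of at least 100. Members with a replicate 2 peak fell from 7 to 4 without extension and to 3 at a score of at least 100, and to 0 when the list was shortened to its 15017 highest scores (154 and above). In the 300 kb window the 24 replicate 2 peaks became 6 at a score of at least 100 and 1 in the shortened list. Using 1 precipitation alone gave 5 to 7 members with a peak in place of 2, and 2 to 5 with a peak near a TSS. The counts with H3K4me3 moved between 4 and 6. The depth of each precipitation is unknown and input chromatin was not analysed here, and the intervals of single peaks cover counting error only.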

Other observations

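In the 300 kb window the highest score of replicate 2 was at S100A16, which is not among the members. That peak, from 153580258 to 153581307, scored 221 with 36 tags, was enriched 8.0 times, and its middle lay 16 bp from a TSS of S100A16. It overlapped no H3K4me3 interval and no replicate 1 peak. S100A2 had 2 replicate 2 peaks with their middles 32 and 172 bp from a TSS (scores 51.2 and 92.7), and the second overlapped H3K4me3 of replicate 1 but not of replicate 2. H3K4me3 replicate 1 had 11 intervals in the window and replicate 2 had 4, and each of the 4 overlapped one of replicate 1.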
